A study of Mus musculus with 7 samples.

Results

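Chemokine genes of double-negative T cells (DNT cells) are described here through 6 genes, Ccl1, Ccl3, Ccl4, Ccl5, Ccl20 and Xcl1, out of 27514 gene IDs counted in every library. They were taken by symbol, and all 6 symbols were found in all 7 libraries. DNT cells are T cells with an αβ T cell receptor that carry neither CD4 nor CD8. The genes had been picked because their summed levels differed between activated and naive DNT cells in these libraries, so those differences are given as a description, with no test.

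The libraries hold single-cell RNA read from the 3′ end (10x Chromium) of spleen T cells of male C57BL/6 mice aged 8 weeks, all sorted as CD3+ NK1.1- with an αβ and no γδ receptor. Activated DNT cells (2 libraries) had been sorted as naive and then kept in vitro for 3 days with anti-CD3 and anti-CD28 antibodies and IL-2 at 20 ng/ml. Naive DNT cells (2 libraries) were sorted as CD4- CD8-, and cells binding αGal-CD1d or LPC-CD1d tetramers, reagents for NKT cells, were gated out. CD4 cells (CD4+ CD8-), CD8 cells (CD4- CD8+) and the parent αβ T cell gate, called TCRab, gave 1 library each. No group was cultured without stimulation, so stimulation and culture cannot be told apart. Replicate 1 of both DNT groups and the 3 single libraries used kit v2, and replicate 2 of both DNT groups used kit v3. The series states that the DNT replicates are biological, and how many mice gave each library is not given in the sources used here.

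Chemokines are small secreted proteins that attract cells carrying the matching G protein-coupled receptor. CCL3, CCL4 and CCL5 are inflammatory CC chemokines, of which CCL3 and CCL5 bind CCR1; they draw monocytes and activated T cells to a site of response and are typical products of activated CD8 T cells and NK cells. CCL1 is a ligand of CCR8, a receptor found on T helper type 2 cells and regulatory T cells, CCL20 is the chemokine ligand of CCR6, a receptor of IL-17-producing T cells and B cells, and XCL1 binds XCR1, which is carried by cross-presenting dendritic cells.

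Promoter sequences are shown for the 4 members that matched in the RefSeq promoter table (build GRCm38.p6), because all of these were higher in both activated libraries than in any other library. Ccl4 and Ccl5 were not matched. Each sequence is the 250 bases before the RefSeq start site, read 5′ to 3′ along the gene. Ccl3 lies at chr11:83649379-83649628 on the minus strand, Ccl1 at chr11:82179813-82180062 on the minus strand, Ccl20 at chr1:83116516-83116765 on the plus strand and Xcl1 at chr1:164935523-164935772 on the minus strand. Capitals mark matches to the NF-kB consensus or to the NFAT core TGGAAA, searched on both strands together with the AP-1 motif TGANTCA and the TATA box TATAAA.
Ccl3: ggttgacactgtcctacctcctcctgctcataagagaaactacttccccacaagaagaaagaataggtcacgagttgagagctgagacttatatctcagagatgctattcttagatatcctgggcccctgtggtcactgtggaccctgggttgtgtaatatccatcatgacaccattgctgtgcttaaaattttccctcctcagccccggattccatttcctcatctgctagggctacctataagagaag
Ccl1: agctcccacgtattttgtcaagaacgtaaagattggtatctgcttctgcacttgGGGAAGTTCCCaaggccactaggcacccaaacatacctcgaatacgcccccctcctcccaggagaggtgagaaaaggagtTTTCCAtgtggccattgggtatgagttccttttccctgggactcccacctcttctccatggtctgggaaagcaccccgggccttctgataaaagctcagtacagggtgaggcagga
Ccl20: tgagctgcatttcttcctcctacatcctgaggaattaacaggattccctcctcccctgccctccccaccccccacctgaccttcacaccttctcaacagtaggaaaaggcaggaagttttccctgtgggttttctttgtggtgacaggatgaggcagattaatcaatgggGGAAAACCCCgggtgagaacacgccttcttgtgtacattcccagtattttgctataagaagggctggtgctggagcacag
Xcl1: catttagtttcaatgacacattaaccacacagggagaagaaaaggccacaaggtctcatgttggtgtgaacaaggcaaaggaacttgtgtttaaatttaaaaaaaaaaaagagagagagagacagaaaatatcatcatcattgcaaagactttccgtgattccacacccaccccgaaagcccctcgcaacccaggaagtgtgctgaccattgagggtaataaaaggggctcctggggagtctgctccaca

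The Ccl1 window held NF-kB matches on both strands at -196 and -195, which overlap in the same palindromic stretch, and an NFAT core on the opposite strand at -116. The Ccl20 window held an NF-kB match on the opposite strand at -80. No match to any of these motifs was found in the Ccl3 and Xcl1 windows, and none to the AP-1 or TATA letters in any of the 4. Over all 32851 promoters of the table, windows of the same length held the NF-kB consensus in 7.25%, TGGAAA in 18.6%, TGANTCA in 6.75% and TATAAA in 12.4% of cases. A match is a description of letters only, and a window with none says nothing about the factor.

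In GENCODE vM21 on GRCm38, Ccl5 (ENSMUSG00000035042) is at chr11:83525778-83530518 on the minus strand, Ccl3 (ENSMUSG00000000982) at chr11:83647844-83649355 on the minus strand and Ccl4 (ENSMUSG00000018930) at chr11:83662584-83664683 on the plus strand. Ccl3 and Ccl4 are therefore neighbours in opposite orientation, with 13228 bases between them, and 117325 bases separate Ccl5 from Ccl3. Ccl1 (ENSMUSG00000020702) lies at chr11:82176657-82305690 on the minus strand, Ccl20 (ENSMUSG00000026166) at chr1:83116766-83119167 on the plus strand and Xcl1 (ENSMUSG00000026573) at chr1:164931644-164935527 on the minus strand. The Ccl1 window shown above lies inside the GENCODE span of Ccl1, so its motif offsets hold for the RefSeq start site only. Xcl1 overlaps the gene Gm20743 on the other strand, and whether the authors' counting used strand is not given in the sources used here, so reads of this pair could not be separated with certainty.

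After filtering, the libraries held 1791 and 1549 activated DNT cells, 4049 and 6728 naive DNT cells, 5035 CD4, 4655 CD8 and 4294 TCRab cells, with 17255173 to 53342795 UMIs each over the shared genes. Any 2 libraries shared between 0 and 36 cell barcodes. Cd4 was at 0.0562 to 0.204 counts per 1000000 UMIs (CPM) in the 4 DNT libraries, against 137 CPM in the CD4 library. Cd8a was at 0.319 to 3.49 CPM in the 4 DNT libraries, against 492 CPM in the CD8 library. Cd8b1 was at 2.34 to 3.11 CPM in activated and 5.23 to 15.2 CPM in naive DNT. Cd8a and Cd8b1 summed to 1798 CPM in the CD8 library. The 3 Cd3 chains summed to 1479 to 2771 CPM in all 7. These values match the labels. Markers of other cell types moved with the groups: the 4 red cell genes summed to 0 and 0.436 CPM in activated DNT libraries and 3691 and 816 CPM in naive ones, the 5 myeloid genes to 159 and 159 against 493 and 183 CPM (Cst3 makes up nearly all in activated cells, where Lyz2 was at 0 and 0.793 CPM), and the 4 B cell genes to 9.17 and 12.01 against 25.3 and 84.3 CPM. Platelet genes stayed at 0.204 and 1.03 CPM in activated against 0.232 and 3.09 CPM in naive DNT, the NK genes Klrb1c and Ncr1 at 0.407 and 3.53 against 13.6 and 13.9 CPM, and Zbtb16, a marker of invariant NKT cells, at 7.19 and 16.6 against 3.82 and 24.1 CPM. The part of these cells in the results was not tested except where a value is given beside a gene.

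Across the 5 groups, 5 members were highest in activated DNT cells and Ccl5 was highest in naive DNT cells. Levels are CPM, taken over the UMIs of all shared genes summed across the cells of a library. In such sums fewer cells with a transcript and less transcript per cell cannot be told apart, and the values per cell given further on describe each.

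Of the inflammatory CC chemokine genes, Ccl3 was at 2375 and 1670 CPM in the activated DNT libraries, 28.5 and 14.2 CPM in the naive ones, 1.57 CPM in CD4, 3.46 CPM in CD8 and 3.28 CPM in TCRab. The activated and naive libraries did not overlap, and both naive libraries lay above the 3 single ones, among which the order cannot be set against a replicate spread. The means were 2023 ± 498 CPM in activated and 21.4 ± 10.1 CPM in naive DNT (SD, n = 2 each), with a fitted log2 fold change of 6.37 ± 0.87 (SE, edgeR). Within each kit the activated library was 83.3-fold (kit v2) and 117-fold (kit v3) above its naive counterpart. Cells marked as myeloid, 171 and 107 in the naive libraries, held 19.3% and 36.4% of the naive Ccl3 UMIs. Without marked cells naive Ccl3 was at 24.3 and 9.27 CPM. The myeloid-marked cells were 4.22% and 1.59% of the naive cells and held 3.20% and 1.33% of the naive Ccl5 UMIs. How many of them were T cells was not tested.

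Ccl4 was at 4920 and 4036 CPM in the activated libraries, 46.5 and 34.0 CPM in the naive ones, 4.29 CPM in CD4, 12.9 CPM in CD8 and 21.0 CPM in TCRab. Again the activated libraries stood apart from all others. The means were 4478 ± 625 CPM in activated and 40.3 ± 8.89 CPM in naive DNT (SD, n = 2 each), with a fitted log2 fold change of 6.64 ± 0.79 (SE), and the within-kit ratios were 106 and 119. Myeloid-marked cells held 5.60% and 13.1% of the naive Ccl4 UMIs.

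Ccl5 ran the other way. It was at 391 and 497 CPM in the activated libraries, 11766 and 6407 CPM in the naive ones, 176 CPM in CD4, 1555 CPM in CD8 and 835 CPM in TCRab. The naive libraries were the 2 highest of the 7, and the activated libraries fell below CD8 and TCRab and above CD4. The means were 444 ± 74.6 CPM in activated and 9087 ± 3789 CPM in naive DNT (SD, n = 2 each), a fitted log2 fold change of -4.61 ± 0.77 (SE). The naive libraries differed among themselves by 1.84-fold, and the activated library was below its naive counterpart by a factor of 30.1 in kit v2 and 12.9 in kit v3.

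Ccl1, the CCR8 ligand, was at 1634 and 568 CPM in the activated libraries, 0 and 0.0375 CPM in the naive ones, 1.75 CPM in CD4 and 0 in CD8 and TCRab. The activated libraries differed from each other by 2.88-fold, more than for any other member. In all, 70473 UMIs in activated stood against 2 UMIs in naive DNT, a ratio of pooled CPM of 41749 with a counting interval of 11557 to 344740 (exact conditional, 95%, counting error only). The 38 Ccl1 UMIs of the CD4 library came from 7 of 5035 cells.

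Ccl20, the CCR6 ligand, was at 327 and 163 CPM in the activated libraries and had no UMI in any of the other 5. Its 15336 UMIs in activated cells made it at least 6057-fold higher than in naive cells, with 3 UMIs summed over both naive libraries taken as the floor. With 0 of 4049 and 0 of 6728 naive cells positive, shares of up to 0.0741% and 0.0446% of cells with a UMI would still be possible.

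Xcl1, the XCR1 ligand, was at 4005 and 5215 CPM in the activated libraries, 199 and 186 CPM in the naive ones, 1.52 CPM in CD4, 18.4 CPM in CD8 and 14.2 CPM in TCRab. The activated libraries were the highest, and the naive libraries lay close together and above the CD4, CD8 and TCRab libraries. The means were 4610 ± 856 CPM in activated and 192 ± 8.99 CPM in naive DNT (SD, n = 2 each), with a fitted log2 fold change of 4.40 ± 0.63 (SE) and within-kit ratios of 20.2 and 28.1.

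**Figure D1:**
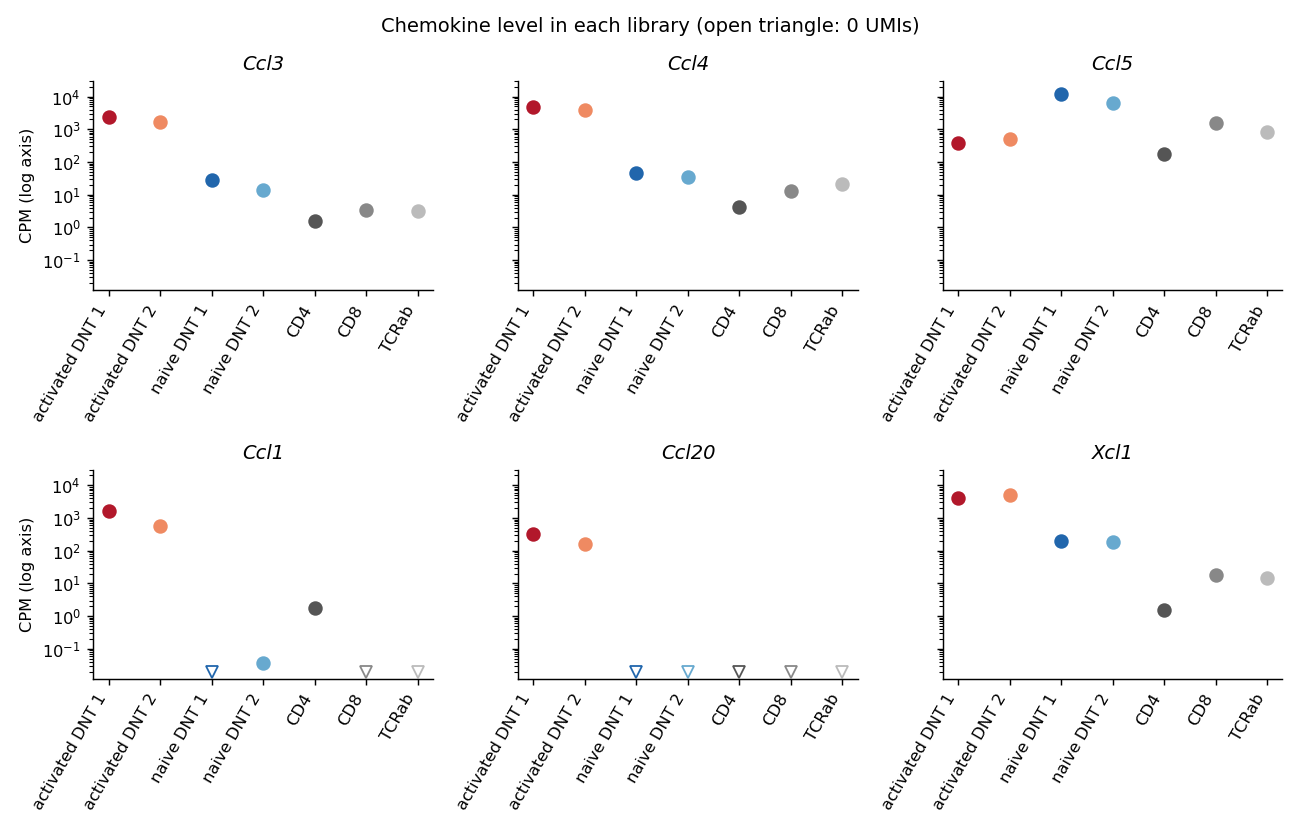
Level of each chemokine gene in CPM (log axis) in every library, 1 point a library, with an open triangle at the bottom for 0 UMIs. Activated DNT libraries are highest for 5 genes (Ccl20 at 327 and 163 CPM against 0 elsewhere), and naive DNT libraries for Ccl5 (11766 and 6407 CPM).

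The fit behind these values was edgeR's quasi-likelihood test on UMIs summed per library, over 12325 genes that passed its filter on low counts. All 6 members passed the filter, Ccl1 and Ccl20 only through the activated group, and at an adjusted p of 0.05 the fit calls 5 of them higher and 1 lower. Since the members were chosen on this contrast nothing is read from that count, which stands beside calls for 5.32% of all tested genes as higher and 5.06% as lower. The median log2 fold change over all tested genes was -0.05.

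Naive DNT cells were next set against the 3 freshly sorted single libraries. A gene was counted as higher in naive DNT when both naive libraries were at least 2-fold above the other library and at 20 CPM or more; with 1 library on the other side there is no test. By this rule 3 of the 6 members (Ccl4, Ccl5, Xcl1) were higher than in CD4, against 5.94% of the 3738 genes that reached the floor. These 3 were the only members to reach it, and the choice of members had used the same naive libraries. The same 3 were higher than in CD8, against 5.14% of genes, and 2 (Ccl5, Xcl1) were higher than in TCRab, against 4.55%. No member was lower. Ccl3 missed the floor in naive replicate 2, Ccl4 was under 2-fold above TCRab in that replicate, and Ccl1 and Ccl20 were near or at 0 on both sides.

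Xcl1 separated naive DNT from CD4 cells most widely, at 130-fold (92.7 to 190) and 122-fold (86.8 to 177) in the naive replicates (exact 95% counting intervals). Ccl5 was 66.8-fold and 36.4-fold above CD4, 7.57-fold and 4.12-fold above CD8, and 14.1-fold and 7.67-fold above TCRab. Its counting intervals are narrow (7.48 to 7.65 for the first CD8 ratio), so the difference between the naive replicates exceeded counting error. Xcl1 was 10.8-fold and 10.1-fold above CD8. Ccl4 was 3.59-fold and 2.62-fold above CD8 and only 2.22-fold (1.96 to 2.51) and 1.62-fold (1.45 to 1.81) above TCRab. Naive replicate 1 shares kit v2 with the single libraries, so the first ratio of each pair is the comparison within a kit.

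The share of cells with at least 1 UMI was compared after every cell had been thinned to 1500 UMIs, because median UMIs per cell were 15724 and 9347 in activated and 4090 and 7511 in naive libraries. Thinning left out 0 and 75 activated, 43 and 80 naive, 38 CD4, 10 CD8 and 36 TCRab cells. Ccl3 was then found in 50.2% and 20.6% of activated cells and in 3.20% and 1.40% of naive cells. Ccl4 was found in 66.1% and 30.1% of activated cells and in 3.89% and 2.71% of naive cells. In both activated libraries Ccl4 was the more widespread of these neighbouring genes, and the shares in replicate 1 were more than double those in replicate 2.

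Xcl1 was found in 62.9% and 35.4% of thinned activated cells and in 18.6% and 17.4% of naive cells, against 0.160% of CD4, 1.59% of CD8 and 0.775% of TCRab cells. Ccl5 was found in 28.5% and 39.2% of activated cells and 93.6% and 78.5% of naive cells, against 3.60% of CD4, 29.1% of CD8 and 15.7% of TCRab cells. For this gene activated replicate 1 had about the share of CD8 cells and replicate 2 a larger one. Ccl1 was found in 32.5% and 6.04% of activated cells, and Ccl20 in 5.97% and 1.29%. Without thinning the activated shares were far higher, for example 82.8% and 16.01% for Ccl1 and 97.8% and 59.7% for Ccl4.

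Free RNA puts UMIs into cells that do not express a gene. The cells that should lack T cell transcripts were B-marked cells without Cd3, and naive replicate 2 alone had enough of them, 70 with a median of 4855 UMIs, beside 6537 Cd3+ cells with a median of 7555. Xcl1 was found in 41.0% of Cd3+ cells and 1.43% of those B cells (exact binomial 95% interval 0.0362% to 7.70%). Ccl5 was found in 90.6% of Cd3+ cells and 52.9% of the B cells, but at a mean of 51.8 UMIs in Cd3+ cells and 0.700 UMIs in B cells. Ccl3 was found in 4.08% of Cd3+ cells and 1.43% of the B cells, and Ccl4 in 7.99% of Cd3+ cells and 10.0% of the B cells. The naive Ccl4 share was thus no higher in Cd3+ cells than in these B cells, and the Ccl3 share was within the interval of the B cell value. Summed over cells, Ccl4 was at 36.8 CPM in the B cells against 31.7 CPM in Cd3+ cells, and Ccl3 at 2.83 against 10.2 CPM. Ccl5 was at 139 against 6480 CPM, and Xcl1 at 2.83 against 188 CPM. Whether the Ccl3 and Ccl4 UMIs of these B cells came from free RNA was not tested. In the activated libraries 0 and 3 such cells were present, and a background share could not be measured there. Cells with 10 or more UMIs are therefore used below as cells rich in a gene, a limit chosen after seeing the data.

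Rich cells numbered 708 and 245 for Ccl3, 989 and 342 for Ccl4 and 955 and 407 for Xcl1 in activated DNT, which is 39.5% and 15.8%, 55.2% and 22.1%, and 53.3% and 26.3% of cells. In naive DNT these 3 genes had rich cells in 0.123% and 0.268%, 0.198% and 0.446%, and 0.568% and 3.00% of cells. With cells thinned to 1500 UMIs, 10 or more Xcl1 UMIs were in 19.2% and 13.2% of activated and 0.0499% and 0.0451% of naive cells. Ccl1-rich cells were 19.4% and 4.78% and Ccl20-rich cells 3.74% and 0.968% of activated cells, with none in naive DNT. Ccl5-rich cells, counted without thinning, were 16.4% and 24.7% of activated and 74.2% and 70.3% of naive cells. In the single libraries they were 0.973% of CD4, 11.7% of CD8 and 4.87% of TCRab cells. At 1500 UMIs a cell, 10 or more Ccl5 UMIs were in 0.614% and 2.85% of activated and 66.8% and 46.6% of naive cells. At this depth CD8 cells, at 5.49%, lay above both activated libraries, and TCRab cells, at 2.75%, lay between them. The CD4 share was the lowest at either setting.

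**Figure D2:**
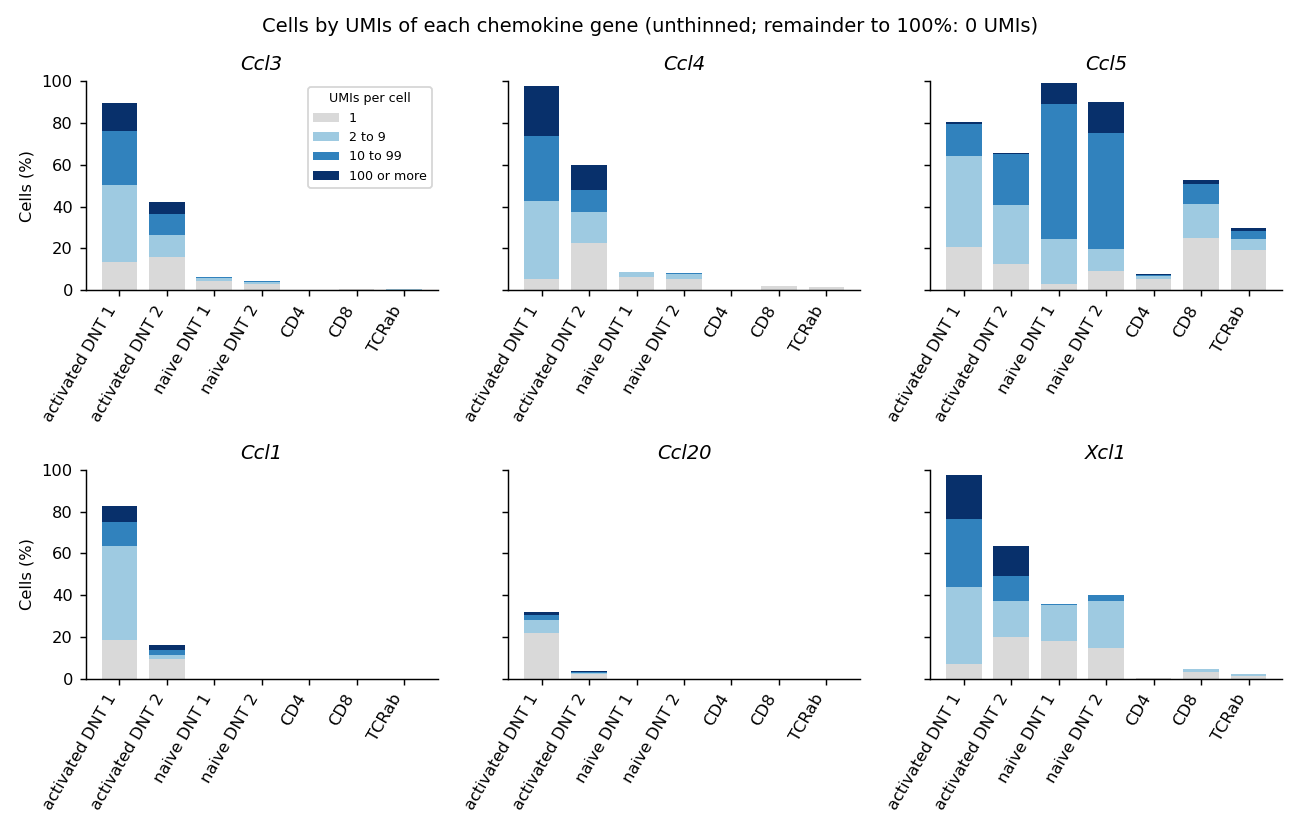
Percent of cells in each library by the number of UMIs of each gene, unthinned, with cells at 0 UMIs left blank up to 100%. Cells with 10 or more UMIs of Ccl5 make up 16.4% and 24.7% of the activated and 74.2% and 70.3% of the naive DNT libraries, and those of Ccl4 55.2% and 22.1% of the activated and 0.198% and 0.446% of the naive ones.

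Ccl5 was spread over cells most evenly in naive DNT. In activated DNT, positive cells had a median of 3 and 6 UMIs, and the richest 10% of cells held 63.8% and 55.9% of all Ccl5 UMIs. In naive DNT, where cells had fewer UMIs in all, positive cells had a median of 48 and 52 UMIs, and the richest 10% held 26.6% and 29.0%. In rich naive cells Ccl5 made up a median of 1.44% and 0.842% of all UMIs of the cell. CD8 cells differed again: the median positive CD8 cell had 2 UMIs, and 10% of cells held 87.6% of the gene's UMIs, with up to 544 UMIs in a cell.

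The other 5 members were unevenly spread in activated cells. For Ccl4, the median positive cell had 13 and 3 UMIs, the cell at the 90th percentile 287 and 287, and the richest cell 1928 and 3588. The richest 10% of cells held 60.8% and 89.1% of Ccl4, 65.7% and 93.2% of Ccl3 and 60.7% and 85.3% of Xcl1. For Ccl1 this was 85.9% and 99.4%, and for Ccl20 96.5% and 100%, where the 56 positive cells of replicate 2 are fewer than 10% of its cells. Ccl20 reached 922 and 2322 UMIs in a cell, while the median positive cell had 1 UMI in both libraries. The steepest curves thus belong to Ccl20 and Ccl1.

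**Figure D3:**
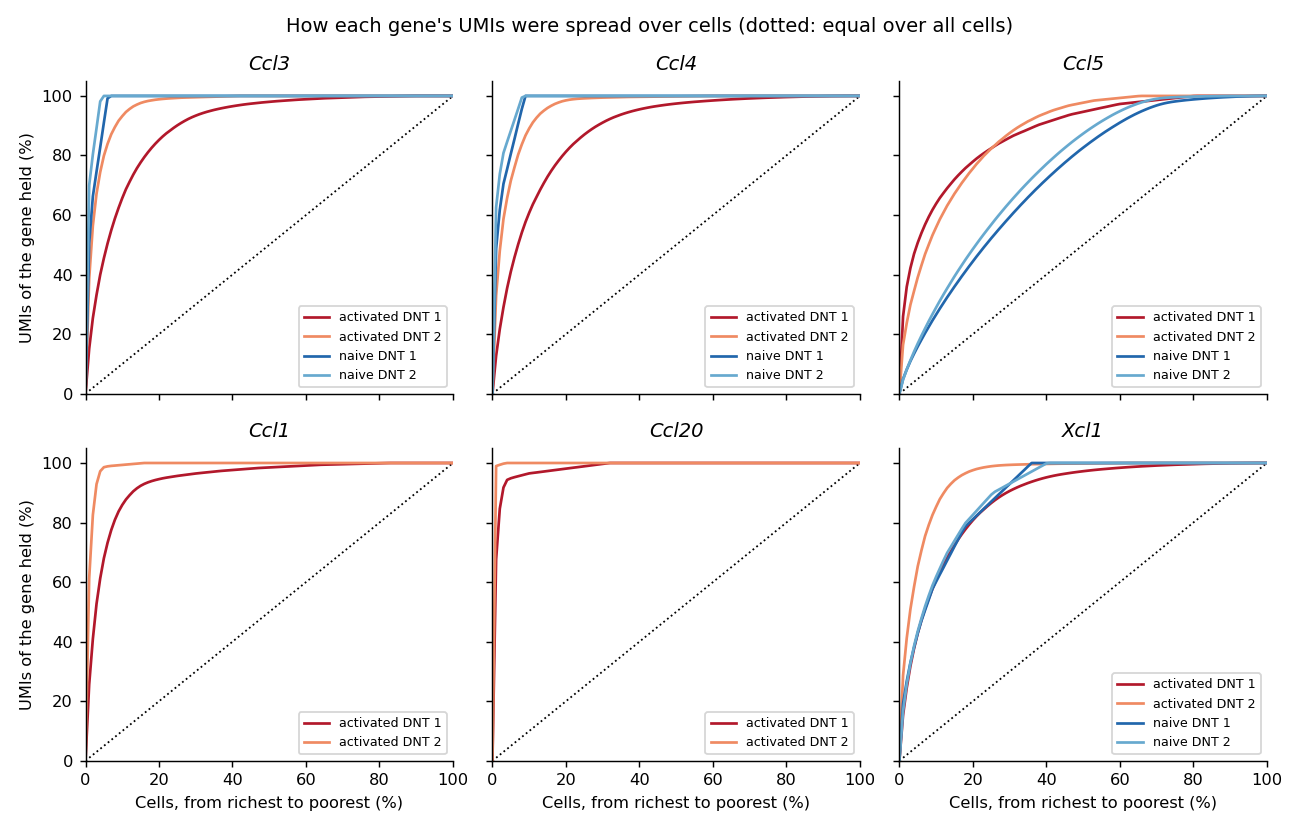
Percent of a gene's UMIs (vertical axis) held by cells ranked from richest to poorest (horizontal axis, percent of cells) in DNT libraries with at least 400 UMIs of the gene, with a dotted line for an equal spread. The Ccl5 curves of naive DNT run nearest to the dotted line (26.6% and 29.0% of UMIs in the first 10% of cells), and the Ccl20 curves rise at once (96.5% and 100%).

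Rich cells were chosen on unthinned UMIs, so deeper cells reach the limit more easily and a higher total is in part fixed by the choice. Ccl20-rich cells had median totals of 43932 and 36467 UMIs, 2.90 and 3.92 times the other cells of their library. Ccl1-rich cells had 28361 and 44612 UMIs, or 2.12 and 4.997 times the others, and Ccl4-rich cells 2.12 and 2.29 times. Ccl5-rich activated cells stood at 1.504 and 0.891 times. Doublets were not removed, and their part in these deep cells was not tested. With every cell thinned to 1500 UMIs before summing, so that each cell counts alike, mean Ccl20 in activated DNT was 101 CPM in place of 245 CPM.

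Which members shared a cell was first counted in rich cells of activated DNT. Ccl3 and Ccl4 went together: of 708 and 245 Ccl3-rich cells, 98.6% and 96.7% were also Ccl4-rich, while 70.6% and 69.3% of Ccl4-rich cells were Ccl3-rich. Of Ccl3-rich cells, 84.3% and 84.9% were Xcl1-rich. Of the Ccl1-rich cells, 89.6% and 82.4% were Ccl4-rich and 87.0% and 95.9% Xcl1-rich. The set Ccl3, Ccl4 and Xcl1 without other members was the most frequent combination of several, with 296 cells (16.5%) and 113 cells (7.30%).

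What Ccl5-rich and Ccl20-rich cells held differed between the libraries. Of Ccl5-rich activated cells, 70.7% in replicate 1 but 24.3% in replicate 2 were Ccl4-rich, against 55.2% and 22.1% of all cells. In replicate 2, 267 cells (17.2%) were rich in Ccl5 alone, the largest class after cells rich in none. Of Ccl5-rich cells, 57.1% and 21.7% were Ccl3-rich and 38.8% and 10.97% Ccl1-rich, against 39.5% and 15.8% for Ccl3 and 19.4% and 4.78% for Ccl1 in all cells. Of Ccl20-rich cells, 70.1% and 13.3% were Ccl3-rich. Ccl20-rich cells were Ccl4-rich in 88.1% and 46.7% of cases, and Xcl1-rich in 50.7% of 67 cells and 0 of 15 cells, against 53.3% and 26.3% of all cells. No member was rich in 29.6% and 51.3% of activated cells, and 3 or more were in 39.6% and 15.4%.

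**Figure D4:**
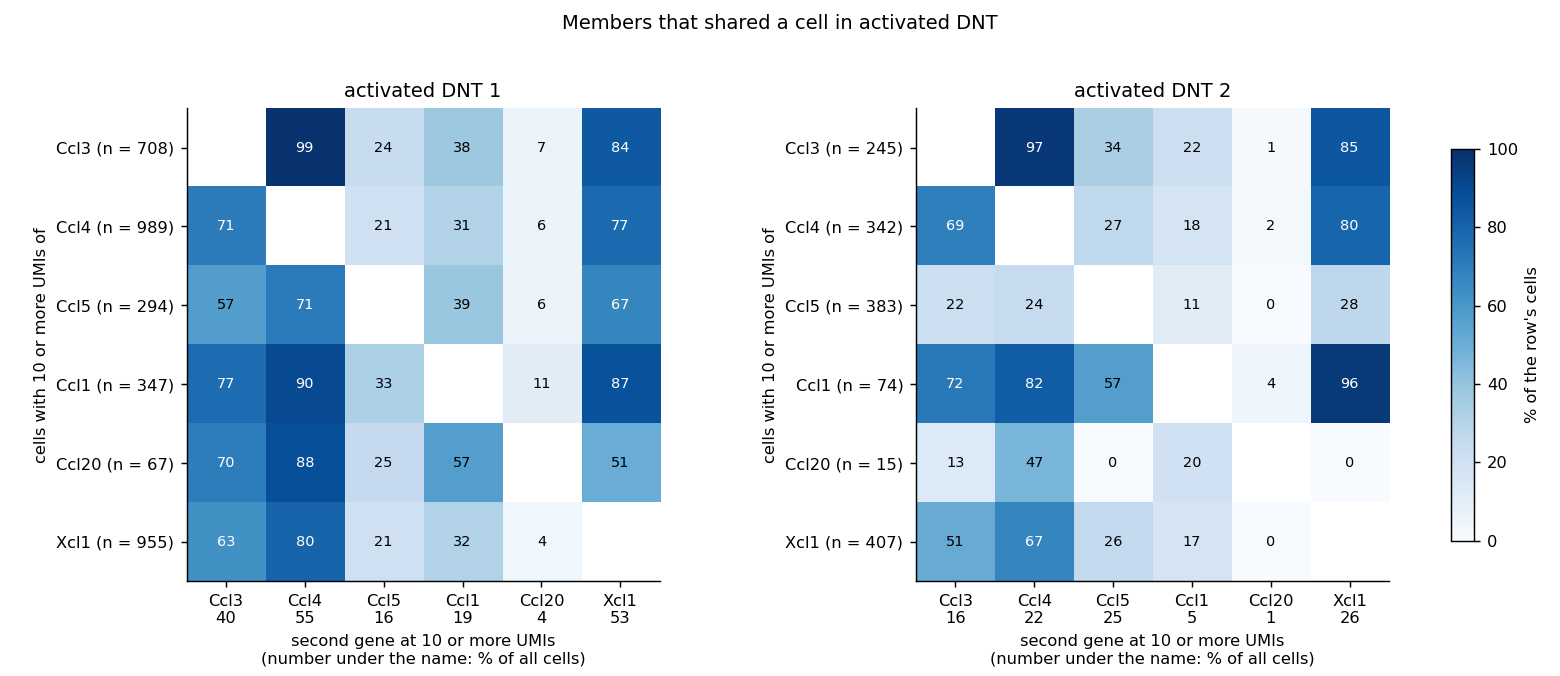
Percent of the cells with 10 or more UMIs of the row gene that also had 10 or more UMIs of the column gene, in both activated DNT libraries, with the column gene's percent of all cells under its name. Nearly all Ccl3-rich cells (98.6% and 96.7%) were Ccl4-rich, and Xcl1 was rich in 0 of 15 Ccl20-rich cells of replicate 2.

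At equal depth (1500 UMIs and at least 1 UMI), the number of cells with both genes was set against the product of the shares. The ratio was 1.25 and 2.74 for Ccl3 with Ccl4, 1.18 and 2.19 for Ccl3 with Xcl1, and 1.14 and 1.79 for Ccl4 with Xcl1. Ccl1 joined them at 1.20 and 2.57 with Ccl3 and 1.13 and 2.13 with Xcl1. Ccl5 was near the product with each of Ccl3, Ccl4, Ccl1 and Xcl1, at 0.923 to 1.12 over both libraries. With at least 2 UMIs asked for at this depth, the libraries differed. In replicate 2, Ccl5 was then below the product with Xcl1 (0.631, 60 cells), Ccl4 (0.775, 61 cells) and Ccl3 (0.857, 46 cells). With Ccl1 it was at 1.0035 (14 cells). In replicate 1, Ccl5 was above the product with each of these genes, at 1.11 to 1.29. In rich cells, counted without thinning, Ccl5 was above the product with Ccl1, at 2.001 and 2.30, and with Ccl3, at 1.45 and 1.37. In replicate 1, which had enough Ccl20 cells, Ccl20 was below the product with Xcl1 (0.803) and Ccl5 (0.819) and above it with Ccl1 (1.44). In rich cells of that library, counted without thinning, Ccl5 with Ccl20 lay above the product, at 1.55 (17 cells). Libraries where a gene is in most cells cannot reach high ratios, so replicates are not compared with each other.

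In naive DNT, Ccl3 with Ccl4 was at 4.21 (21 cells) and 8.74 (22 cells), on a base of 128 and 93 Ccl3-positive cells, and the part of the myeloid-marked cells in this was not tested. Ccl5 with Xcl1 was at 1.06 and 1.23, and 740 of 747 and 1111 of 1154 Xcl1-positive cells held Ccl5. In the CD8 library Ccl4 with Ccl5 was at 2.36 (33 cells) and Ccl5 with Xcl1 at 2.46 (53 cells).

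The share of member-positive cells was then compared between cells with and without each of 32 partner genes, at 1500 UMIs. Partner genes are cytokines, granzymes, receptors and regulators, and 22 of them were in at least 30 cells of both activated libraries. Named are those whose smaller ratio over the libraries was largest, and the lowest by the larger ratio. Cells of a library share their source, so these are descriptions. Ccl3 in activated DNT was found in 78.9% and 77.2% of cells with Ifng (interferon-γ), and in 44.1% and 14.8% of cells without. With Nr4a1, an early-response gene of T cell receptor signalling, it was in 77.2% and 63.2% against 47.4% and 15.7% without. Csf2, which encodes the cytokine GM-CSF, gave ratios of 1.84 and 2.48.

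Ccl4 had Ifng and Nr4a1 among its leading partners too, with ratios of 1.44 and 3.36 for Ifng, 1.37 and 2.24 for Tnf and 1.36 and 2.63 for Nr4a1, and was lowest with the homing receptor gene Ccr7, at 0.709 and 0.621. Xcl1 went with Ifng (1.52 and 2.60), Gzmb, which encodes granzyme B (1.40 and 1.86), and Csf2 (1.33 and 2.101), and was lowest with Il17a, at 41.7% and 16.1% of cells with and 63.9% and 36.6% of cells without. Activated Ccl5 went with Ly6c2, which encodes the surface protein Ly6C (1.51 and 1.87), and Fcer1g, the Fc receptor γ chain (1.32 and 1.503). It was lowest with Csf2 (0.736 and 0.721), a value that came to 1.07 in replicate 1 when 2 UMIs of Ccl5 were asked for. Csf2 thus stood at the low end for Ccl5 and among the highest for Ccl3 and Xcl1.

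Ccl1 was found more often in cells with the proliferation gene Mki67 (1.85 and 2.102), Csf2 (1.75 and 3.21) and the adhesion receptor gene Cd44 (1.37 and 1.59), and least in cells with Nr4a1 (0.718 and 0.518). Ccl20 was found in 23.8% of 84 and 10.3% of 87 activated cells with Il17a, the cytokine of type 17 T cells, and in 5.10% and 0.721% of cells without. Its other leading partners were Tnf (2.79 and 3.32) and Lta, which encodes lymphotoxin-α (2.75 and 6.59), and with Nr4a1 it was in 2.40% of 167 cells and 0 of 152 cells. Nr4a1 was thus a leading partner of Ccl3 and Ccl4 and, ranked by the larger ratio over the libraries, the lowest of Ccl1 and Ccl20. For Ccl20 this rests on 107 and 19 positive cells.

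**Figure D5:**
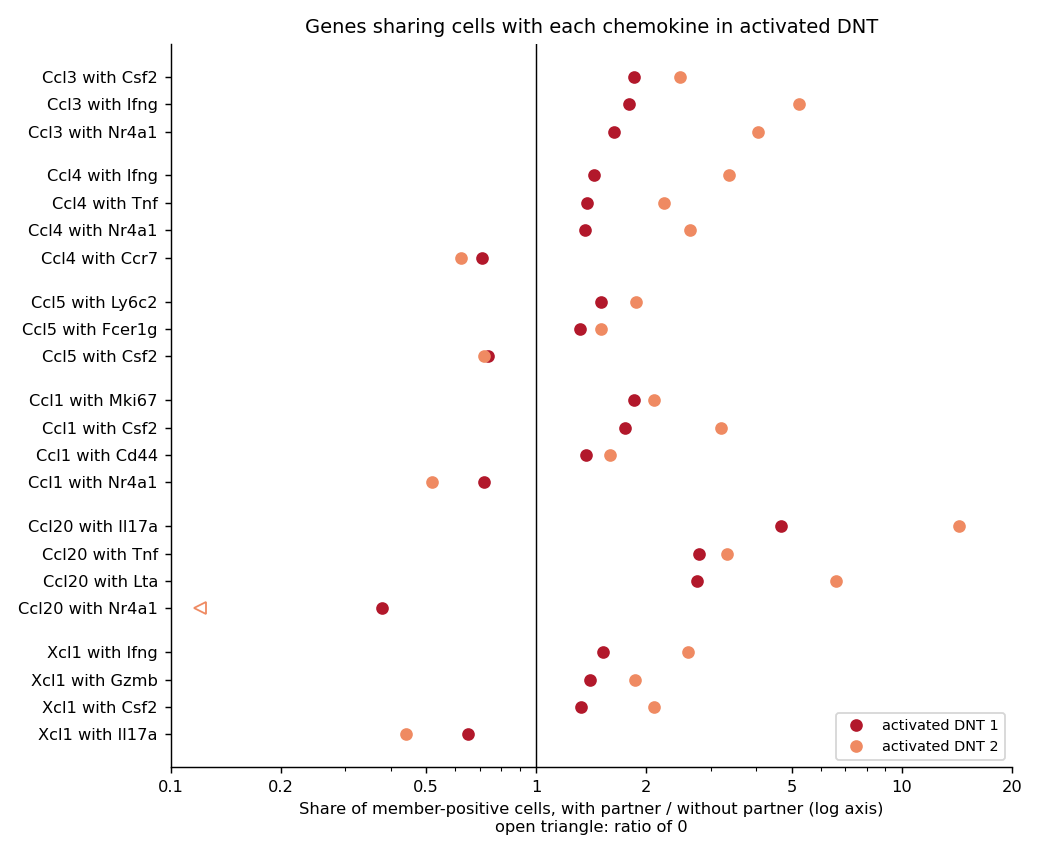
Share of cells positive for a chemokine gene in cells with a partner gene over the share in cells without (log axis), at 1500 UMIs, 1 point for each activated DNT library. Ccl20 with Il17a lies farthest to the right (4.67 and 14.3), and Ccl20 with Nr4a1 gave 0.378 and a 0, drawn as an open triangle at the left edge.

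In naive DNT the leading partners of Ccl3 and Ccl4 were granzyme genes. Ccl4 was found in 23.2% of 56 and 28.2% of 71 cells with Gzma, against 3.62% and 2.43% of cells without. Gzmb gave 7.64 and 5.38 and Gzmk 4.14 and 4.46. Ccl3 had ratios of 5.98 and 12.4 with Gzma, 6.75 and 4.61 with Gzmb and 4.21 and 10.5 with Gzmk. Naive Xcl1 was instead lowest with Gzmk (0.470 and 0.676) and went with Fcer1g (1.84 and 1.98), Ifng (1.67 and 1.76) and Ly6c2 (1.59 and 1.61). Ccl5, in most naive cells already, had its largest ratios with Ly6c2 (1.12 and 1.57), Klrd1 (1.10 and 1.37) and Fcer1g (1.06 and 1.24), and was lowest with Cd40lg, the CD40 ligand (0.816 and 0.552). With Gzmk, Ccl5 was in 87.3% of 79 and 56.9% of 51 naive cells, against 93.7% and 78.7% of those without. In the CD8 library Gzmk was its leading partner, with Ccl5 in 91.7% of 48 cells with and 28.5% of cells without, followed by Gzmb (3.12) and the NK receptor gene Klrk1 (2.89).

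Among genes with a UMI in at least 5% of thinned cells of both libraries, likeness to a member was measured as Pearson's correlation over cells of the log counts, and genes were ranked by the lower of the values in the 2 libraries. Points of a library share depth and source. Over 1791 and 1474 activated cells, Ccl3 was most like Ccl4 (0.81 and 0.86), then Ifng (0.53 and 0.62), Xcl1 (0.52 and 0.63), Nr4a1 (0.35 and 0.49) and Nr4a2 (0.33 and 0.50). Ccl4 was next most like Xcl1 (0.55 and 0.66), and Xcl1 had Crtam (0.39 and 0.52), an adhesion receptor of activated lymphocytes, after Ccl4 and Ccl3. Rgs16, a regulator of G protein signalling, was at 0.33 and 0.38 with Ccl4 and with Xcl1. Ccl1 reached 0.29 and 0.34 with Xcl1, 0.25 and 0.26 with Ccl4 and 0.24 and 0.28 with Ccl3, and for Ccl20 no ranked gene reached 0.2 in both libraries. Il17a, in under 5% of thinned cells of replicate 1, was not among the genes ranked.

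Over 4006 and 6648 naive cells, Ccl5 was most like Klrd1 (0.38 and 0.34), which encodes the NK receptor chain CD94, followed by the ribosomal protein genes Rps27 (0.31 and 0.32), Rps23 (0.30 and 0.29) and Rps18 (0.30 and 0.28). For Ccl3, Ccl4 and Xcl1 no ranked gene reached 0.2 in both naive libraries. Ccl3 and Ccl4 were each in under 5% of thinned naive cells, so their likeness to each other was not measured.

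Beyond the members, 35 other chemokine genes were listed and 34 were in the shared reference. Of these, 10 passed the filter and none passed the edgeR test (adjusted p 0.05). At an unadjusted p of 0.05, 1 was higher and 2 were lower, and by DESeq2 2 were higher (Ccl17, Cxcl3) and 2 lower (Ccl6, Cxcl10). Of all 12325 tested genes, edgeR called 5.32% higher and 5.06% lower. At an unadjusted p of 0.05, 1714 of all tested genes were higher and 1794 lower, and DESeq2 called 1207 and 1141. The median log2 fold change of the 10 other chemokine genes was 0.55, against -0.05 over all genes. Ccl9, a CCR1 ligand known from the mouse, was at 287 and 39.6 CPM in activated and 10.3 and 1.16 CPM in naive DNT (log2 fold change 4.69 ± 1.97, SE, edgeR adjusted p = 0.234), so that the groups did not overlap but replicates differed by 7.24-fold and 8.83-fold. With the replicate number as a block, Ccl9 passed as higher and Ccl6 as lower. Myeloid-marked cells held 0.954% and 0% of Ccl9 UMIs in activated and 85.3% and 74.2% in naive DNT. Ccl6 was at 0.960 and 0.436 CPM in activated and 16.8 and 3.64 CPM in naive DNT. Myeloid-marked cells held 75.8% and 81.8% of Ccl6 UMIs in activated and 84.5% and 94.3% in naive DNT, and their part in the Ccl6 result was not tested.

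Ccl9-rich cells numbered 200 and 25 in activated DNT, and 93.5% and 100% of them were Xcl1-rich, against 53.3% and 26.3% of all cells. They were also Ccl4-rich in 87.5% and 88% and Ccl3-rich in 77.5% and 88% of cases. Ccl17, a CCR4 ligand, was at 31.3 and 0.674 CPM in activated and 0 and 0.169 CPM in naive DNT (edgeR adjusted p = 0.205). All 21 Ccl17-rich cells of activated replicate 1 were rich in both Ccl1 and Ccl3, against 19.4% and 39.5% of all its cells. Of these 21 cells, 95.2% were also Ccl4-rich, 90.5% Xcl1-rich, 42.9% Ccl5-rich and 38.1% Ccl20-rich. Over all cells of that library the shares were 55.2%, 53.3%, 16.4% and 3.74%. Cxcl10, a CXCR3 ligand, was at 5.94 and 2.78 CPM in activated and 8.23 and 32.0 CPM in naive DNT (edgeR adjusted p = 0.105). Cxcl2, a ligand of the neutrophil receptor CXCR2, was at 3.46 and 3.33 against 2.38 and 27.2 CPM, where the groups overlapped (edgeR adjusted p = 0.223).

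Of 23 chemokine receptor genes listed, 15 were tested, and 1 was higher and 7 were lower in activated DNT, with a median log2 fold change of -1.79. Over all tested genes 5.32% were called higher and 5.06% lower, with a median of -0.05. Ccr4, the receptor of CCL17 and CCL22, rose to 18.9 and 20.3 CPM in activated DNT, against 1.10 and 3.34 CPM in naive DNT (log2 fold change 3.11 ± 0.49, edgeR adjusted p = 0.0145). Ccr9, a gut-homing receptor, fell to 0.204 and 0.278 CPM in activated DNT, against 6.49 and 20.3 CPM in naive DNT (-5.81 ± 0.61, edgeR adjusted p = 0.00711). Ccr2, the CCL2 receptor, fell to 2.42 and 6.26 CPM in activated DNT, against 26.3 and 50.4 CPM in naive DNT (-3.30 ± 0.47). Ccrl2, an atypical receptor, fell to 0.960 and 1.35 CPM, against 8.92 and 23.4 CPM (-3.86 ± 0.49). The others past the test were Ccr10 (-4.54), Cxcr5, the CXCL13 receptor (-2.96), Cx3cr1 (-3.95) and Cxcr3, the receptor of CXCL9 and CXCL10 (-1.79, adjusted p = 0.0488). Ccr4, Ccr9 and Ccrl2 passed under every alternative run, while the other 5 did not pass after thinning to 1500 UMIs, which left 12 receptor genes tested. Without naive replicate 1, Ccr10, Cxcr5, Cx3cr1 and Cxcr3 did not pass. Cx3cr1 did not pass without marked cells either. Cxcr3 was also lost without activated replicate 1, without naive replicate 2, with DESeq2's size factors in edgeR and without the filter on mitochondrial share. Ccr9, Ccr10, Cxcr5 and Cx3cr1 overlap other annotated genes.

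The members' receptors described here were low in every DNT library. Ccr1 was at 2.71 and 2.89 CPM in activated and 0.522 and 0.956 CPM in naive DNT (edgeR adjusted p = 0.0864), so that the groups did not overlap. Ccr6 was at 6.93 and 7.81 against 4.64 and 15.3 CPM, where the groups overlapped (edgeR adjusted p = 0.605). Ccr3, Ccr8 and Xcr1 did not pass the filter, at most at 0.476, 1.78 and 0.262 CPM in any DNT library. With the replicate block Ccr1 passed as higher, as it did without marked cells.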

How the data were processed

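The deposited files are matrices of unnormalized UMI counts from the authors, with gene and cell barcode names in separate lists. Per the submitters' processing notes, Cell Ranger 2.1.0 and 3.0.1 and the mm10 (GRCm38) build were used; other settings are not given in the sources used here. The references held 27998 (kit v2) and 31053 (kit v3) genes, and the 27514 IDs in both were used. Barcodes entered when they had 200 genes or more and no more than 10% mitochondrial UMIs; doublets were not called. UMIs were summed per library and tested with edgeR 4.0.16 (filterByExpr, TMM, robust quasi-likelihood F test, Benjamini-Hochberg over all genes at 0.05), with DESeq2 1.42.0 as an alternative, in R 4.3.3. Cell values used Python 3.11.15, NumPy 2.4.6, SciPy 1.17.1 and pandas 2.3.3, with cells thinned at seed 1. Intervals (95%) and zero floors (3 UMIs) cover counting error only. Both count scripts were tested on simulated data. A cell was marked as B or myeloid with UMIs of at least 2 genes of that type's marker list (4 B cell and 5 myeloid genes), and as red with red cell genes at 1% or more of its UMIs.

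The members, gene lists and rules were chosen with earlier results of these data known. Named are the members, other chemokine genes at 20 CPM or more in any library or past the test, the members' receptors and other receptors past the test, the 5 genes most like a member at a lower correlation of at least 0.2, and per member the 3 highest and 1 lowest partner genes with at least 30 cells in each library; a few genes that these rules name are not reported here. Same-numbered libraries deviated together from their group means (r = 0.617 over genes); the numbers match the library kit per the labels' protocols, so the replicate block is a kit block. The biological coefficient of variation was 0.429, and 0.227 with the block.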

Additional observations from a re-analysis of the deposited data

How the results depend on the processing

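The numbers of the DNT libraries pair them by kit, and with the replicate block the fit called 2458 genes higher and 2436 lower in activated DNT, in place of 656 and 624; it gave log2 fold changes of 6.49 for Ccl3, 6.67 for Ccl4, -4.43 for Ccl5 and 4.44 for Xcl1. Calls higher and lower were 1083 and 1105 with no filter on low counts, 1207 and 1141 by DESeq2, 225 and 113 with cells thinned to 1500 UMIs, and 277 to 1032 and 270 to 1042 when each replicate was left out. Of the other chemokine genes, those called higher and lower numbered 1 and 2 with no filter, 1 and 1 with the replicate block, 2 and 2 by DESeq2, and 0 to 6 and 1 to 4 without each replicate (6 higher without activated DNT replicate 2, where the lone library is assumed to vary like the other group). Of the receptor genes, 2 were higher with the block and 2 without marked cells, 2 were lower after thinning, and 1 to 2 were higher and 3 to 8 lower without each replicate (3 without naive DNT replicate 1: Ccr2, Ccr9 and Ccrl2). Leaving out replicates moved the log2 fold change of Ccl3 between 5.78 and 7.37, Ccl4 between 6.20 and 7.25, Ccl5 between -5.17 and -3.70 and Xcl1 between 4.09 and 4.78. Mean Ccl1 in activated DNT lay between 568 and 1634 CPM and mean Ccl20 between 163 and 327 CPM; after thinning, an alternative chosen after seeing the data, Ccl20 was at 101 CPM. In naive DNT against CD4, CD8 and TCRab, the genes higher in naive DNT numbered 124, 102 and 82 at 3-fold, 365, 307 and 280 with a floor of 10 CPM, and 269 to 1908, 243 to 2040 and 215 to 1824 without a naive replicate, the upper values resting on naive DNT replicate 2, which differs from the single libraries in kit. The cause was not tested where none is named. Of 39 pairs of members and libraries, 3 crossed the product of shares at 3000 UMIs, 2 at 2 or more UMIs and 5 at 10 or more UMIs, the last added after seeing the data; 1 of 40 named partner values (Ccl5 with Csf2) crossed 1 at 2 or more UMIs, also added after seeing the data.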

Other observations

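The genes least like a member over cells were chosen after their values were seen. Naive Ccl5 had its lowest correlation with Rgcc (-0.30 and -0.32 in the 2 naive libraries, over 4006 and 6648 cells thinned to the same depth), and activated Xcl1 with AW112010 (-0.24 and -0.30 over 1791 and 1474 cells). Cells of a library share their source. The 38 Ccl1 UMIs of the CD4 library were in 7 cells, in 1 of which there were 23.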
